A study of Mus musculus with 8 samples.

Results

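The centromere-proximal ends of 14 mouse autosomes were followed in B cells during their first cell cycle after activation. They were taken as all 50 kb bins that start between 3 and 8 Mb of GRCm38 (the assembly also called mm10) on chromosomes 1 to 11, 13, 14 and 17, which gave 1397 of 48088 autosomal bins. Of these, 1294 passed the limits on undetermined sequence and coverage, out of 47332 autosomal bins that passed. They were defined by position. The other 103 member bins were left out of the contact values below, unless all bins are said to be kept. The search for repeat sequence and the repeat content of single chromosomes covered all member bins. On chromosome 14 only 17 bins were kept, and on chromosome 7 there were 85, so the values of chromosome 14 rest on few read pairs.

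Mouse chromosomes are telocentric: the centromere lies at the very end, and the assembly starts with a run of undetermined bases in its place. The satellite repeats beside the centromeres gather in the interphase nucleus into chromocentres, clusters that hold the ends of several chromosomes and are packed as constitutive heterochromatin. Chromosomes 12, 15, 16, 18 and 19 also carry ribosomal DNA (rDNA) close to the centromere and meet at nucleoli, so they were kept apart here as a reference class. The unique sequence next to the satellites can be read by in situ Hi-C. There, chromatin fixed in the nucleus is digested (here with MboI, which cuts at GATC), ends lying side by side are joined, and each sequenced read pair stands for a contact of 2 places. As cells approach division, chromatin condenses and contacts along a chromosome are rearranged.

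All 8 libraries were made from splenic B cells, per the methods of male mice aged 6 to 12 weeks on a background of C57BL/6 Pep3b, cultured with lipopolysaccharide (LPS) and sorted as activated cells (CD69+) that had not divided, by their CellTrace Violet (CTV) dye. There were 2 biological replicates in each group: C57BL/6 cells harvested after 3 h, 10 h or 33 h (imminent division), and C57BL/6 FUCCI cells of 33 h that were additionally sorted as mAG- mKO2hi, that is, before S phase (pre-S). FUCCI mice carry a pair of fluorescent cell cycle reporters, so the strain, the gate and the group of the pre-S libraries cannot be told apart. The libraries held 88703088 to 218945191 read pairs. Both imminent division libraries were the deepest, at 180325399 and 218945191, against 88703088 to 170436624 at 3 h and 10 h. The pre-S libraries held 117386199 and 105015427. Contrasts with imminent division thus had the most reads, so counts of calls are not alike between contrasts. Imminent division replicate 2 stood apart in the share of read ends on the sex chromosomes, with 3.74% on X against 2.39 to 2.84% in the other 7 libraries and 0.0490% on Y against 0.0804 to 0.123%. More X together with less Y goes against the description of all mice as male for this library, the cause was not tested, and values without it are given where it matters. Contrasts against 10 h share the 10 h libraries.

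What lies at these ends is shown by the sequence at the start of 4 of them, which were chosen to set the repeat array at the start of chromosome 9 beside the starts of chromosomes 11, 1 and 5. All are the plus strand of GRCm38, and capitals mark MboI sites. The start of chromosome 9 was built of a repeat with a period of 234 bases: 70.0% of positions over 30 kb equalled the base one period further on, and the 2 units printed here were identical at 63.7% of positions.
chr9:3000001-3000234: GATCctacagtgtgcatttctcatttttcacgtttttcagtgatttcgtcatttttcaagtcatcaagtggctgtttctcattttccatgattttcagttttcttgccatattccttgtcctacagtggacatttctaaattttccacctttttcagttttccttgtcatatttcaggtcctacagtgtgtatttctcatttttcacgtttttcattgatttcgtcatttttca
chr9:3000235-3000468: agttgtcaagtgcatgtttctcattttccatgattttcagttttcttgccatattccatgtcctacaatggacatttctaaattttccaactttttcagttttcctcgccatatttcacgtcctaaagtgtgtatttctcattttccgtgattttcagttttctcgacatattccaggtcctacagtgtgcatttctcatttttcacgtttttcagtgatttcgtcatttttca
chr11:3100001-3100120: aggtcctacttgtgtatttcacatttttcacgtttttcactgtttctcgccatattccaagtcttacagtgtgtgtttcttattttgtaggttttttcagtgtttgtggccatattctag
chr1:3000001-3000120: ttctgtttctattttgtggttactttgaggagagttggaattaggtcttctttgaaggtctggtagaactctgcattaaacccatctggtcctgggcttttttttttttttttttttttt
chr5:3000001-3000120: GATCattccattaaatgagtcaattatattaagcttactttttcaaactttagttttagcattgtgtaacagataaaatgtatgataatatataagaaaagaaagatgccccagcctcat
Words of 16 bases from the array at the start of chromosome 9 made up over 1% of only 1 member bin, chr9:3000001-3049479, out of 3 such autosomal bins, but this search finds exact words only and misses diverged copies, so the share of contacts read in the repeat is not known. The kept member bins held 507 protein-coding starts, or 7.84 per Mb against 8.60 over all kept autosomal bins. Their GC content was 41.1% against 41.9%, their repeat content 40.0% against 33.2%, and 36.3% of them lay in the A compartment, the gene-rich and active part of the genome, against 45.8% of all kept bins.

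The proximal windows met each other more often than their coverage predicts in every library. A window here is the 5 Mb stretch from 3 to 8 Mb, and contact over expectation is the observed count of read pairs divided by the product of 1 factor per window, the factors being fitted so that each window's interchromosomal total is matched. A value of 1 is thus the contact that the windows' own interchromosomal totals predict. Between the 14 proximal windows the value was 1.464 and 1.465 (3 h), 1.496 and 1.487 (10 h), 1.656 and 1.650 (imminent division) and 1.487 and 1.490 (pre-S). The imminent division libraries were the highest and overlapped with no other group. The value was above 1 in 8 of 8 libraries, with a mean log2 of 0.61 ± 0.074 (SD, n = 8) and p = 0.0078125 in the exact two-sided sign-flip test over libraries, the smallest p that 8 libraries can give.

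Group means were 1.46 ± 0.00098 (3 h), 1.49 ± 0.0058 (10 h), 1.65 ± 0.0041 (imminent division) and 1.49 ± 0.0021 (pre-S), each ± SD with n = 2. The log2 difference of imminent division from 10 h was 0.15, and the groups differed in the exact permutation test (p = 0.0190, adjusted p = 0.0245 over 9 measures). Without imminent division replicate 2 the log2 difference was 0.15 as well. The rise is one relative to the interchromosomal contacts of the same windows. The plain share of interchromosomal read pairs that joined 2 proximal windows was 0.143 and 0.147% (3 h), 0.150 and 0.148% (10 h), 0.153 and 0.148% (imminent division) and 0.147 and 0.145% (pre-S), so that the groups overlapped. The proximal windows' share of all interchromosomal read ends was 3.18%, 3.19%, 3.05% and 3.16% (means at 3 h, 10 h, imminent division and pre-S) and was lowest in both imminent division libraries. With the expectation built from the total coverage, cis included, the means were 2.33, 2.42, 2.39 and 2.25, and the log2 difference of imminent division from 10 h was -0.022. The groups differed there too (exact permutation test over the 4 groups, adjusted p = 0.0286), which does not test that single difference. The enrichment over 1 was thus present under both expectations, whereas the order of the groups depended on the one used. With total coverage, however, a value above 1 was not particular to this class. The proximal windows then stood above 1 with chromosome interiors and telomere-proximal windows too, as given below.

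Over the expectation from interchromosomal coverage, the 14 windows stood above the other classes compared here. Their contact with the proximal windows of chromosomes 12, 15, 16, 18 and 19 was 1.35, 1.39, 1.44 and 1.39 (means in the same order), and these rDNA-bearing ends met each other at 1.17, 1.25, 1.34 and 1.33. The proximal windows met windows of chromosome interiors at 0.992, 0.991, 0.987 and 0.989. With the last full window of other chromosomes, next to the telomere, the value was 0.780, 0.779, 0.760 and 0.801. The log2 excess of proximal contact over the class it was compared with was 0.38 for telomere-proximal windows with each other, 0.26 for the rDNA-bearing ends, 0.97 for proximal with telomere-proximal windows and 0.60 for interiors, in 8 of 8 libraries each time (exact sign-flip p = 0.0078125 in each). Interiors met each other at 1.001 in every group, so the comparison with interiors nearly repeats the one against 1 (0.61) and adds no separate evidence. With total coverage in the expectation the order among the centromeric classes was another one: the excess over the rDNA-bearing ends was -0.059, and proximal with rDNA-bearing proximal windows met at 2.403, 2.498, 2.361 and 2.355, above the 2.333, 2.425, 2.388 and 2.251 of the proximal windows except at imminent division. The values below 1 did not hold there either. Proximal windows met interiors at 1.23, 1.24, 1.17 and 1.20, and the last full window of other chromosomes at 1.07, 1.08, 1.01 and 1.08.

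The other ends of the chromosomes were highest at imminent division too, but by how much depended on the windows taken. Values here are over the expectation from interchromosomal coverage unless stated. The last full windows of different chromosomes met each other at 1.17, 1.17, 1.21 and 1.15 (means in the same order). The log2 lead of the proximal class over them was 0.33, 0.35, 0.46 and 0.38, largest at imminent division, and differed between groups (exact permutation p = 0.00952, as small as 4 groups of 2 can give, and adjusted p = 0.0143 over 3 such comparisons). With total coverage in the expectation these windows met each other at 1.36, 1.36, 1.45 and 1.36, beside 2.33, 2.42, 2.39 and 2.25 for the proximal windows. The lead was then not largest at imminent division, and its change was not tested. The last 5 Mb, a class added after seeing the data, met each other at 1.22, 1.23, 1.36 and 1.23, and the lead over these was 0.26, 0.28, 0.28 and 0.27 and did not pass (exact permutation p = 0.210, adjusted p = 0.210). The lead over the rDNA-bearing ends, at 0.33, 0.26, 0.31 and 0.16, differed between groups (exact permutation p = 0.00952, adjusted p = 0.0143) and was smallest at pre-S. Contact between the proximal windows and the last 5 Mb of other chromosomes went the other way and was lowest at imminent division, with means of 0.800, 0.798, 0.763 and 0.822. For the last full window of other chromosomes, given above, the groups differed (exact permutation p = 0.0286, adjusted p = 0.0321).

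**Figure D1:**
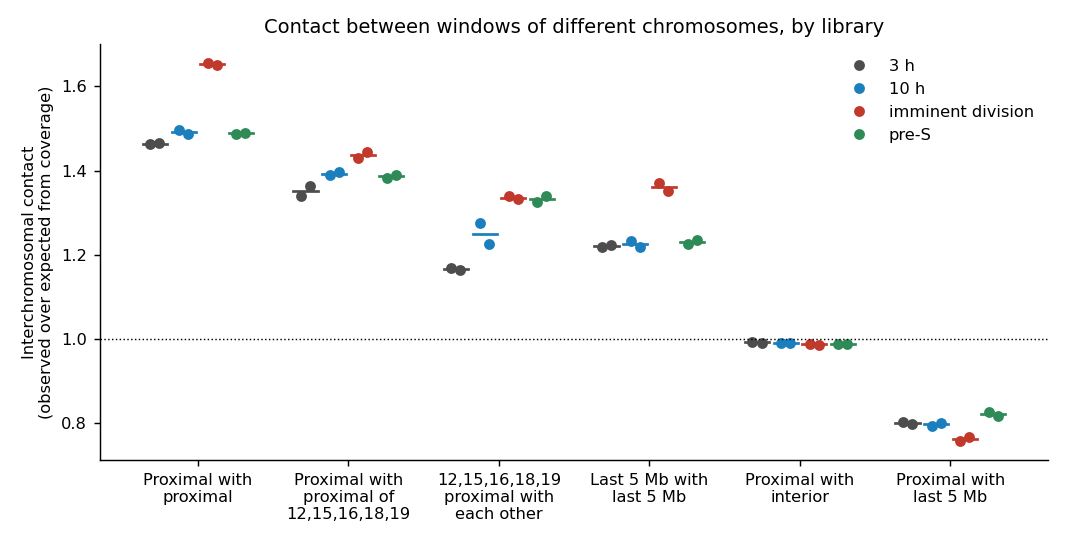
Interchromosomal contact over the expectation from coverage (y axis, no unit) for 6 classes of windows (x axis), with 1 point per library and a bar at each group mean. Proximal windows with each other stand at 1.46 to 1.66 in the 8 libraries, and both the proximal class and the class of last 5 Mb windows are highest at imminent division.

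The excess was steepest at the sequenced start of the chromosomes. Taken in 1 Mb steps, contact of the first Mb (3 to 4 Mb) with the proximal windows of other chromosomes averaged 1.72 ± 0.014 (3 h), 1.78 ± 0.018 (10 h), 2.09 ± 0.0068 (imminent division) and 1.80 ± 0.0041 (pre-S), each ± SD with n = 2. The next step stood at 1.47, 1.49, 1.64 and 1.51, and the last step of the window, at 7 to 8 Mb, at 1.38, 1.38, 1.46 and 1.35. The step just outside the window, at 8 to 9 Mb, was close to that, at 1.35, 1.37, 1.44 and 1.32. The limit at 8 Mb is thus no border in these data: values stayed above 1 in every library until the step starting at 25 Mb, 22 Mb from the sequenced end, and group means first fell below 1 in the steps starting at 29 or 30 Mb. Farther in they were above 1 again in places, with 1.19, 1.19, 1.17 and 1.15 in the step at 39 Mb.

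When steps at equal distance from the start were paired with each other, the first Mb stood out further. First Mb with first Mb met at 2.41 ± 0.043 (3 h), 2.49 ± 0.062 (10 h), 3.32 ± 0.026 (imminent division) and 2.63 ± 0.011 (pre-S). The second Mb with the second Mb stood at 1.52, 1.51, 1.67 and 1.54. The log2 difference of imminent division from 10 h was 0.41 in the first Mb and 0.14 in the second. With windows of 2.5 Mb in place of 5 Mb the value for all proximal windows was accordingly larger, at 1.70, 1.75, 2.05 and 1.80.

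**Figure D2:**
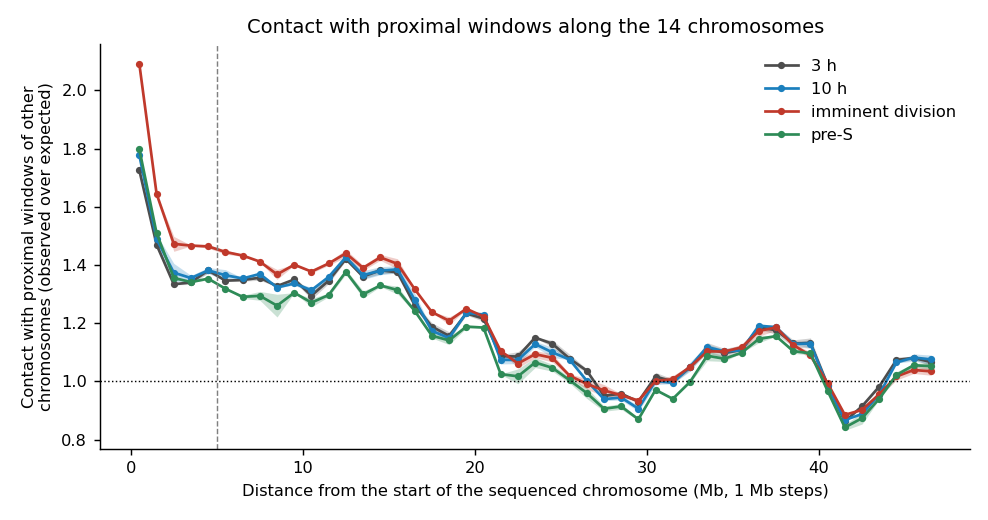
Contact of 1 Mb steps with the proximal windows of other chromosomes, over expectation (y axis), against distance from the sequenced start in Mb (x axis), with a line for each group mean, a band of ± 1 SD (n = 2) and a dashed line at the end of the proximal window. The first step reaches 2.09 at imminent division and 1.72 to 1.80 in the other groups. The values decline over more than 20 Mb, though not steadily, and are above 1 again in places farther in. Among these are the steps that start 33 to 39 Mb from the sequenced start.

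All 14 chromosomes had a proximal window above 1 in all 8 libraries, but they differed widely. The mean over the 8 libraries went from 1.16 on chromosome 11 to 1.84 on chromosome 8. Chromosomes 7, 6 and 5 followed chromosome 8, at 1.80, 1.77 and 1.72, and chromosomes 17, 14 and 2 stood near the low end, at 1.18, 1.18 and 1.26. On 13 of 14 chromosomes both imminent division libraries lay above the 6 others, chromosome 3 being the exception. The log2 difference from 10 h went from 0.081 on chromosome 3 to 0.23 on chromosome 2. Pre-S means lay below those of 10 h on 8 of 14 chromosomes, with log2 differences of -0.12 on chromosome 1 to 0.055 on chromosome 11. Over the 14 chromosomes, which share the libraries and one another's counts, the level had a Spearman rho of -0.32 with the share of bins in the A compartment and of 0.21 with repeat content, while the change from 10 h to imminent division had a rho of 0.61 with the A share and of -0.57 with repeat content. Without chromosome 14, with its 17 kept bins, the 4 values were -0.37 and 0.45 for the level and 0.64 and -0.66 for the change. Repeat content here was taken over all member bins of a chromosome, those left out elsewhere included, and the A share over the kept bins. The change also had a rho of 0.49 with the windows' interchromosomal coverage, from which the expectation is built, and of 0.49 with GC content over all member bins. Without chromosome 14 these were 0.58 and 0.57. For the level the rho was -0.15 with coverage and -0.38 with GC content. Which of these features goes with the change was not tested. All these rho values are descriptions over 14 or 13 points and carry no test.

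**Figure D3:**
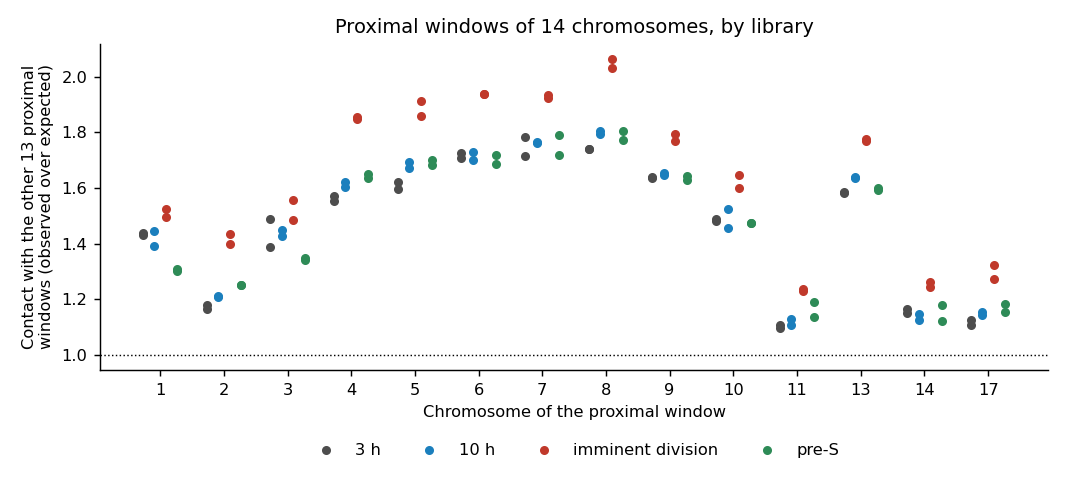
Contact of the proximal window of each chromosome (x axis) with the other 13 proximal windows, over expectation (y axis), with 1 point per library coloured by group. Chromosome 8 is highest and chromosome 11 lowest, and the imminent division points lie above the others on every chromosome except 3.

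Single pairs of chromosomes ranged much further than the class mean. Of the 91 pairs of proximal windows, 66 were above 1 in all 8 libraries and 7 were below 1 in all 8. Each pair held 23 to 2464 read pairs per library. The pair of chromosomes 7 and 8 was the highest in every library: its value was 3.60 and 3.73 (3 h), 3.63 and 3.65 (10 h), 3.95 and 3.95 (imminent division) and 3.65 and 3.20 (pre-S). This contact was spread over the windows, since the 10 fullest of its 8585 bin pairs held 1.32% of its 10161 read pairs, and the first Mb of both held 10.8% of the read pairs in 3.96% of the bin pairs. The next highest, chromosomes 1 and 3, stood at 2.72 and 2.63, 2.76 and 2.59, 2.78 and 3.11, and 2.21 and 2.28 in the same order, so that both pre-S libraries were the lowest. This pair was less evenly spread. The 10 fullest of its 10100 bin pairs held 2.75% of its 7196 read pairs, and the first Mb of both held 18.2%. Its fullest bin pair, with 27 read pairs, joined chr1:3000191-3049670 with chr3:3200068-3249959.

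The pairs below 1 in all libraries were 1-11, 1-17, 2-3, 3-11, 3-17, 9-11 and 11-13 (each named by its chromosomes), and 3-17 had the lowest mean, 0.555. All of these except 2-3 joined chromosome 11 or 17 with chromosome 1, 3, 9 or 13. The share of bins in the A compartment was 68.0% for chromosome 11, 74.0% for chromosome 17 and 58% for chromosome 2, so that 2-3 spanned a wide gap in this share as well. It was 17.8% for chromosome 1, 2.0% for chromosome 3, 11% for chromosome 9 and 24.2% for chromosome 13. A wide gap in this share did not always go with a value below 1. Chromosomes 5 and 6 had shares of 22% and 26.3%, yet 5-11, 5-17 and 6-17 were above 1 in all libraries. The pair 6-11 lay on both sides of 1. The pair 3-10 was above 1 in all libraries as well, with a share of 51.5% for chromosome 10. The pair of the A-rich windows, 11-17, was above 1 throughout. Split by compartment, proximal bins met at 1.82, 1.91, 2.23 and 2.06 where both were A (means at 3 h, 10 h, imminent division and pre-S), at 2.15, 2.13, 2.26 and 1.97 where both were B, and at 0.913, 0.931, 1.07 and 0.958 where 1 was A and the other B. The same values over all interchromosomal contacts were 1.32, 1.34, 1.32 and 1.39 for A with A, 1.63, 1.61, 1.57 and 1.51 for B with B, and 0.550, 0.542, 0.573 and 0.553 for A with B, so that the proximal bins exceeded the genome in all 3 kinds of contact and in all 4 groups. With the compartments built into the expectation, the proximal windows still stood at 1.42, 1.45, 1.62 and 1.45.

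The window pairs were then tested one by one with edgeR, within all 113672 interchromosomal pairs of 5 Mb windows and with the expected counts as offsets. Calls were made at a false discovery rate (FDR) of 5% over that whole table. From 10 h to imminent division, 30 of the 91 proximal pairs (33.0%) gained contact and 0 lost it, while 5.37% of all pairs were called higher and 5.98% lower. Among the proximal pairs 77 of 91 had a positive change, with a median log2 change of 0.14 against 0.0033 over all pairs. At an unadjusted p of 0.05, 2 proximal pairs were lower. The DESeq2 Wald test called 9 higher and 0 lower, and leaving out 1 library at a time gave 16 to 33 higher, the lowest without 10 h replicate 2. With library-size (TMM) scaling and no coverage in the expectation, 5 were higher and 4 lower.

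The 3 rising pairs with the smallest p passed in 12 of 12 alternative settings. The pair 11-17 stood at 1.47 and 1.48 (3 h), 1.70 and 1.59 (10 h), 2.13 and 2.07 (imminent division) and 1.99 and 1.98 (pre-S) (log2 change from 10 h to imminent division 0.36 ± 0.057 SE, edgeR FDR = 1.42e-07). The pair 7-17 stood at 0.909 and 1.04, 0.974 and 1.06, 1.35 and 1.34, and 1.08 and 0.980 in the same order (0.40 ± 0.066, edgeR FDR = 3.79e-07). It was near 1 in the 6 other libraries and above it at imminent division. The pair 4-5 went from 1.76 and 1.85 at 10 h to 2.26 and 2.28 (0.33 ± 0.058, edgeR FDR = 2.89e-06). The lower pairs with the smallest p, 1-17, 3-11 and 9-11, had log2 changes of -0.20, -0.19 and -0.070 and did not pass (edgeR FDR = 0.0536, 0.142 and 0.546).

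Between 3 h and 10 h no proximal pair passed in edgeR, with 6 higher and 1 lower at an unadjusted p of 0.05, against 0.0132% of all pairs called higher and 0.00704% lower. DESeq2 called 0 as well. The smallest p belonged to 4-8, at 1.99 and 1.94 at 3 h and 2.15 and 2.22 at 10 h (log2 change 0.16, edgeR FDR = 0.587). Between 10 h and pre-S, 2 pairs were higher and 2 lower, or 2.20% each, near the 1.87% and 1.78% of all pairs. Those were 11-17 (0.28 ± 0.063, edgeR FDR = 0.00191) and 2-11 (0.21 ± 0.066, edgeR FDR = 0.0454) on the higher side, and 1-3 (-0.25 ± 0.063, edgeR FDR = 0.00763) and 1-6 (-0.26 ± 0.071, edgeR FDR = 0.0121) on the lower. Leaving out 10 h replicate 2 left 0 higher, leaving out 10 h replicate 1 left 0 lower, and DESeq2 called 1 higher and 0 lower. TMM scaling called 1 higher and 12 lower, and with it 11-17 and 2-11 turned to -0.040 and -0.035 and 1-3 to 0.070, while 1-6 stayed at -0.21.

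The direct contrast of the 33 h groups gave 36 of 91 pairs (39.6%) higher at imminent division than at pre-S and 0 lower, against 3.05% and 2.57% of all pairs. At an unadjusted p of 0.05, 1 pair was lower. DESeq2 called 8 higher, TMM scaling 16 higher and 4 lower, and leaving out 1 library 17 to 36 higher, the lowest without pre-S replicate 1. The pairs with the smallest p all joined chromosome 1, whose window was lowest at pre-S: 1-6 was 1.75 and 1.80 at imminent division against 1.24 and 1.24 at pre-S (0.52 ± 0.064, edgeR FDR = 3.08e-12), and 1-3 and 1-5 had log2 differences of 0.39 and 0.41 (edgeR FDR = 2.57e-08 and 1.14e-07). The latter 2 did not pass with TMM scaling, where 1-3 turned to -0.12. One bin of the chromosome 1 window, chr1:3000191-3049670, differed in interchromosomal coverage between groups, at 1.59 and 1.59 times the library's median bin (3 h), 3.15 and 3.06 (10 h), 2.94 and 2.95 (imminent division) and 6.29 and 6.74 (pre-S). Its part in these differences was not tested.

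**Figure D4:**
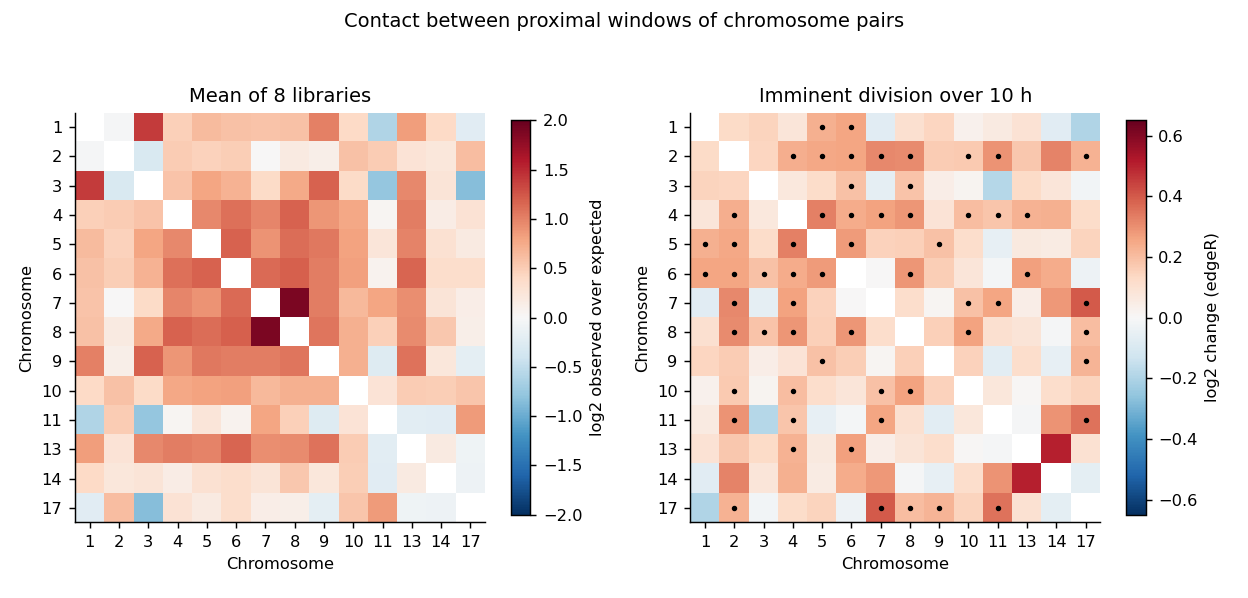
Log2 contact over expectation of the 91 pairs of proximal windows as the mean of 8 libraries (left, colour) and log2 change from 10 h to imminent division (right, colour), with chromosomes on both axes and a dot on the 30 pairs past an edgeR FDR of 5%. The pair of chromosomes 7 and 8 is the strongest, the blue cells on the left mostly join 11 or 17 with 1, 3, 9 or 13, and the dotted cells are all gains.

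At the level of 50 kb bins, the gain at imminent division spanned the proximal window and was larger at its outer end. Each autosomal bin was tested for its read pairs with the proximal windows of other chromosomes, over the expectation from coverage. From 10 h to imminent division 33 of 1294 member bins (2.55%) rose and 0 fell, against 0.173% of all bins called higher and 0.182% lower. At an unadjusted p of 0.05, 266 member bins were higher and 14 lower, and 992 of 1294 had a positive change, with a median log2 change of 0.14 against 0.011 over all bins. Of the 33 bins, 24 lay in the first Mb (of 251 kept there), 6 in the next, and 3 in the remaining 3 Mb. The median log2 change of all kept bins was 0.23, 0.13, 0.10, 0.095 and 0.080 in the 5 steps of 1 Mb from the sequenced end inwards. The gain did not end at 8 Mb: the log2 difference of the group means was 0.084, 0.082 and 0.082 in the steps starting at 7, 8 and 9 Mb. By chromosome, 11 of the 33 were on chromosome 8, 6 on chromosome 2 and 5 on chromosome 4. These calls sit near the limit of the counts: DESeq2 called 0, TMM scaling 27 higher and 6 lower, and leaving out 1 library gave 2 to 34 higher, the lowest without 10 h replicate 2.

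The bins with the smallest FDR were on chromosomes 4 and 8. The bin chr4:3199973-3249853, which holds no protein-coding start, stood at 3.60 and 3.67 (3 h), 3.74 and 3.75 (10 h), 4.62 and 4.61 (imminent division) and 4.06 and 3.99 (pre-S), so that imminent division was highest and pre-S second (log2 change 0.30 ± 0.056 SE, edgeR FDR = 0.000936). The bin chr8:3249746-3300034, where Insr starts (the insulin receptor), stood at 2.26 and 1.83, 1.98 and 1.80, 2.65 and 2.65, and 2.02 and 2.22 in the same order (0.50 ± 0.093, edgeR FDR = 0.000936). Neither passed with DESeq2.

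In the other contrasts few or no member bins were called. No bin of the genome passed between 3 h and 10 h or between 10 h and pre-S (0% in both directions), with 50 members higher and 23 lower, and 40 higher and 43 lower, at an unadjusted edgeR p of 0.05. DESeq2 called 0 members in both, while TMM scaling called 1 and 0 in the former and 4 and 3 in the latter. Between imminent division and pre-S, 2 members were higher and 0 lower, against 0.00634% and 0.00211% of all bins, with 222 and 4 at an unadjusted p of 0.05, whereas TMM scaling called 45 higher and 3 lower. The 2 of the former fit were chr1:3000191-3049670 (0.48 ± 0.094, edgeR FDR = 0.00889), the bin of uneven coverage above, which turned to -0.67 with TMM scaling, and chr6:3149518-3199755, at 5.30 and 5.44 at imminent division against 3.91 and 4.34 at pre-S (0.39 ± 0.075, edgeR FDR = 0.00889).

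Along their own chromosome, the 14 proximal windows together stood slightly higher near by and slightly lower far away at imminent division. Cis contact was taken over an expectation from coverage and distance, with 1 factor per window, a curve over distance shared by all autosomes, and each window's cis total matched, so that a lower value at one distance goes with a higher one at another. At 5 to 20 Mb the value was 1.01 and 1.01 (3 h), 1.01 and 1.01 (10 h), 1.04 and 1.04 (imminent division) and 1.03 and 1.03 (pre-S). Beyond 50 Mb it was 1.00 and 1.01, 0.998 and 1.00, 0.961 and 0.965, and 0.985 and 0.985. With the telomere-proximal window of the same chromosome it was 1.00 and 1.02, 0.989 and 0.995, 0.917 and 0.924, and 0.969 and 0.971. In these 3 pooled classes imminent division was thus highest near by and lowest far away, pre-S lay between it and 10 h, and the 3 h and 10 h libraries lay close together. With a distance curve for each chromosome the order was the same in the other classes, but with the own telomere-proximal window the means were 1.04 (3 h), 1.03 (10 h), 1.01 (imminent division) and 1.00 (pre-S), so that pre-S was lowest. At single distances, with the shared curve, the order did not always hold. At 5 Mb pre-S was highest, at 1.044 against 1.039 at imminent division and 1.025 at 10 h. At each distance from 120 to 150 Mb pre-S stood above 10 h, as with 0.706 against 0.654 at 130 Mb.

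The log2 differences of imminent division from 10 h were small, at 0.039 for 5 to 20 Mb, 0.026 for 20 to 50 Mb, -0.054 beyond 50 Mb and -0.11 with the telomere-proximal window. All 4 distance classes differed between groups in the exact permutation test (adjusted p = 0.0245 for 5 to 20 Mb and 0.0214 for each of the other 3). With a distance curve for each chromosome the differences were 0.032, 0.015, -0.043 and -0.021 (exact permutation test over the 4 groups, adjusted p = 0.0171 in each class). With interchromosomal coverage in place of cis coverage, which leaves the cis total free, the differences were 0.22, 0.13, -0.023 and -0.12. The means went from 0.853 to 0.992 at 5 to 20 Mb and from 0.811 to 0.798 beyond 50 Mb. The exact permutation test over the 4 groups gave adjusted p = 0.0343, 0.0429, 0.0343 and 0.0286. None of these p-values tests the difference of imminent division from 10 h by itself. With windows of 2.5 Mb the class of 20 to 50 Mb no longer passed (exact permutation p = 0.0571, adjusted p = 0.0643). The chromosomes did not move as one: beyond 50 Mb both imminent division libraries lay below both 10 h libraries on 11 of 14 chromosomes and above them on 2, whereas at 5 to 20 Mb they lay above on 5 and below on 5. The log2 difference at 5 to 20 Mb went from -0.065 on chromosome 10 to 0.31 on chromosome 11, with a median of 0.0024 over the 14 chromosomes.

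**Figure D5:**
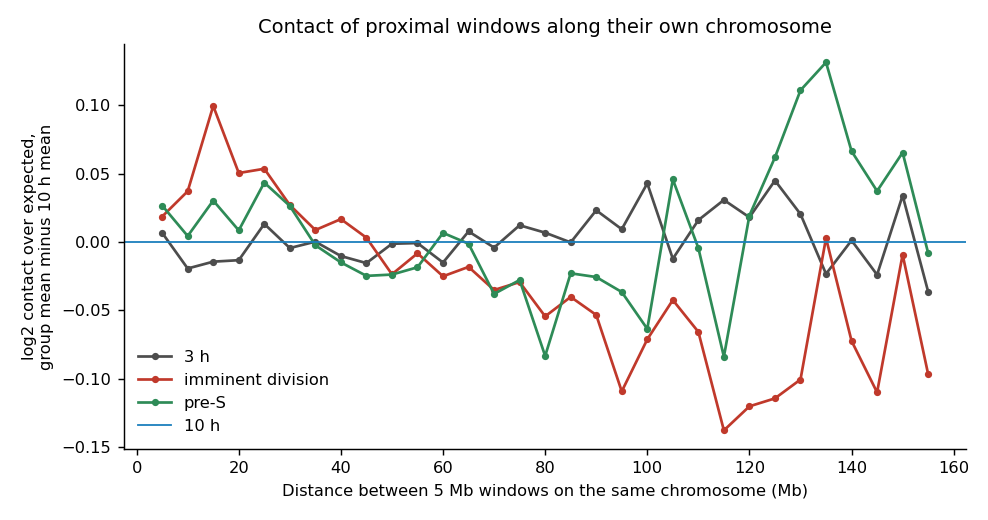
Log2 cis contact over expectation of the 14 proximal windows as group mean minus the 10 h mean (y axis) against the distance between windows in Mb (x axis), with 1 line per group and 10 h as the line at 0. The imminent division line is above 0 up to 45 Mb and mostly below it farther out, and the points farthest out rest on few chromosomes.

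Tested one by one, 382 cis window pairs joined a proximal window with another window of its chromosome. From 10 h to imminent division 80 rose (20.9%) and 130 fell (34.0%), against 30.3% and 32.1% of all 6476 cis window pairs. By distance, 16 rose and 8 fell of 42 at 5 to 20 Mb, 27 and 13 of 84 at 20 to 50 Mb, 22 and 57 of 139 at 50 to 100 Mb, and 15 and 52 of 117 farther out. Of all cis pairs in these classes 30.7%, 30.3%, 29.3% and 32.3% rose and 32.3%, 31.4%, 33.2% and 30.1% fell. The 10 h against 3 h contrast gave 4 higher and 10 lower, against 1.88% and 3.97%. Pre-S against 10 h gave 61 and 82, against 20.9% and 24.3% of all pairs, and imminent division against pre-S 88 and 121 (23.0% and 31.7%, against 26.3% and 26.2%). The balance of pre-S against 10 h turned to 157 higher and 91 lower with TMM scaling, and that of imminent division against pre-S moved to 63 and 167.

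From 10 h to imminent division, 5 of the 6 named pairs (3 in each direction with the smallest p) lay on chromosome 11. Its proximal window met the neighbouring window, which starts at 8 Mb, at 0.509 and 0.511 (3 h), 0.532 and 0.519 (10 h), 0.678 and 0.662 (imminent division) and 0.599 and 0.604 (pre-S) (log2 change from 10 h to imminent division 0.35 ± 0.019 SE, edgeR FDR = 7.72e-10). Contact with the windows starting at 18 and 23 Mb rose by 0.36 and 0.24 on the log2 scale (edgeR FDR = 4.38e-09 and 1.64e-07). Contact with the far windows starting at 103 and 118 Mb changed by -0.32 and -0.37 (edgeR FDR = 5.50e-09 and 3.65e-08): for the latter the values were 1.74 and 1.83, 1.66 and 1.67, 1.25 and 1.32, and 1.41 and 1.43. Chromosome 9 lost contact between its proximal window and the window at 118 Mb, from 0.848 and 0.815 at 10 h to 0.538 and 0.587 (-0.56 ± 0.041, edgeR FDR = 1.31e-08). All 6 passed in 12 of 12 alternative settings. In the early contrast, the changes with the smallest p were losses. On chromosome 17 contact with the window at 28 Mb went from 1.04 and 1.05 at 3 h to 0.942 and 0.924 at 10 h (-0.16 ± 0.023, edgeR FDR = 0.000705, past 5% in 10 of 12 settings), and on chromosome 9 contact with the window at 58 Mb went from 0.355 and 0.322 to 0.269 and 0.267 (-0.32 ± 0.054, edgeR FDR = 0.00241, 9 of 12 settings). The gain with the smallest p was that of chromosome 17 with the window at 43 Mb, from 1.71 and 1.78 to 1.91 and 1.92 (0.13 ± 0.024, edgeR FDR = 0.00387, 8 of 12 settings), which was lost with TMM scaling (0.026, FDR = 0.843). The loss at 28 Mb did not pass with TMM scaling either, though its size was larger there (-0.24, FDR = 0.122).

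At bin level, cis contact outside the own 5 Mb window was set against the expectation from each bin's interchromosomal coverage. From 10 h to imminent division 514 of 1294 member bins rose (39.7%) and 85 fell (6.57%), against 24.1% and 21.3% of all bins. The median log2 change was 0.096 against 0.012 over all bins. The chromosomes differed: 98 of 101 kept bins rose on chromosome 8, 80 of 99 on chromosome 6, 67 of 101 on chromosome 1 and 66 of 100 on chromosome 3, while on chromosome 17 there were 5 higher and 32 lower, and on chromosome 11 there were 20 and 33. TMM scaling without coverage, which changes the library scaling and drops the coverage of the bins at once, turned this balance to 118 higher and 228 lower, and which of these did so was not tested. Over the same contrast the interchromosomal share of read ends rose from 32.2 to 34.7% in member bins and from 25.1 to 28.9% in all autosomal bins (means of 2 libraries), and the ratio of the former to the latter was 1.27, 1.28, 1.20 and 1.23 in the 4 groups. The interchromosomal share of the members itself averaged 32.9 ± 1.21%, 32.2 ± 0.295%, 34.7 ± 0.300% and 33.1 ± 1.69% (SD, n = 2). The 3 h, 10 h and pre-S libraries overlapped, and the share did not pass the test over groups (exact permutation p = 0.238).

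The 2 member bins with the smallest FDR in the rising direction were both on chromosome 8. The bin chr8:7900337-7950157 went from 0.845 and 0.904 at 10 h to 1.25 and 1.29 (0.54 ± 0.059 SE, edgeR FDR = 1.88e-09) and the bin chr8:4700006-4749766 from 0.720 and 0.740 to 1.04 and 1.07 (0.53 ± 0.060, edgeR FDR = 3.02e-09). In the falling direction they were both on chromosome 11. The bin chr11:3999971-4050152, where Sec14l4 starts (a gene of the SEC14-like lipid-binding family), went from 0.706 and 0.696 to 0.512 and 0.519 (-0.44 ± 0.060, edgeR FDR = 1.56e-07), and the bin chr11:3799736-3849954 had a log2 change of -0.42 (edgeR FDR = 1.60e-07). All 4 passed in 12 of 12 settings.

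In the remaining contrasts of this measure, 10 h against 3 h gave 9 member bins higher and 12 lower (0.696% and 0.927%, against 1.19% and 1.22%). The bin of Uqcr10 (a subunit of respiratory complex III), Zmat5 and Cabp7 on chromosome 11 stood at 0.740 and 0.678 at 3 h and 0.543 and 0.591 at 10 h (-0.32 ± 0.061, edgeR FDR = 0.00238), and the bin chr2:3750101-3800055 at 0.688 and 0.738, then 0.873 and 0.916 (0.32 ± 0.061, edgeR FDR = 0.00192). Neither passed with TMM scaling. The bin chr1:3000191-3049670 had a log2 change of -0.83 (edgeR FDR = 1.49e-12) against an expectation that rose with its interchromosomal coverage. With TMM scaling it turned to 0.15 (FDR = 0.928). Its cis coverage, inside and outside the own window together, was 0.582 and 0.626 times the median at 3 h and 0.633 and 0.644 at 10 h. That total was not lower, but it does not single out contact outside the own window. Pre-S against 10 h gave 157 higher and 69 lower (12.1% and 5.33%, against 8.09% and 19.1%; 401 and 235 with TMM scaling), with the bins of Lrp11 (0.42 ± 0.068, edgeR FDR = 8.89e-06) and Katna1 (which encodes the katanin subunit that severs microtubules; 0.34 ± 0.055, edgeR FDR = 1.01e-05), both on chromosome 10, at the top of those that rose. With TMM scaling neither passed (FDR = 0.130 for Lrp11 and 0.233 for Katna1). The bins that fell are not described here. Imminent division against pre-S gave 335 and 51 (25.9% and 3.94%, against 22.2% and 10.4%; 103 and 408 with TMM scaling).

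A mixed list of 14 genes that start in member bins, among them genes of B cells, the cell cycle and heterochromatin but also of translation, transcription and insulin signalling, was chosen with earlier results known, and each bin was tested. In contact with the proximal windows of other chromosomes, all 14 bins had a positive change from 10 h to imminent division, with a median log2 of 0.27 against 0.011 over all bins, and 4 of the 14 passed, beside 2.55% of all member bins and 0.173% of all bins called higher, from which nothing particular to the list is read. These were Insr (above), Cdk6 (a G1 cyclin-dependent kinase), Tox (a nuclear HMG-box protein) and Suv39h2 (a histone H3 lysine 9 methyltransferase of pericentromeric heterochromatin). The bin of Cdk6, chr5:3300466-3350063, stood at 1.24 and 1.73 (3 h), 1.43 and 1.74 (10 h), 2.12 and 2.32 (imminent division) and 1.83 and 1.93 (pre-S) (0.47 ± 0.11 SE, edgeR FDR = 0.0156). The bin of Suv39h2, chr2:3450069-3499942, stood at 0.898 and 0.938, 1.08 and 1.29, 1.85 and 1.66, and 1.18 and 1.04 (0.54 ± 0.14, edgeR FDR = 0.0477). The bin of Tox, chr4:6950120-6999832, stood at 1.34 and 1.17, 1.01 and 1.18, 1.57 and 1.78, and 1.49 and 1.29 (0.61 ± 0.14, edgeR FDR = 0.0142). Imminent division was clear of 10 h in all 3, counts were as low as 36 read pairs per bin and library, and each of the 3 passed in only 7 or 8 of 12 settings. In the 3 other contrasts no bin of the list passed in edgeR.

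In cis outside the own window, 11 of the 14 rose from 10 h to imminent division and 1 fell, with a median log2 change of 0.20 against 0.012 over all bins. Of all member bins 39.7% rose and 6.57% fell, and of all bins 24.1% and 21.3%, a balance that TMM scaling turned for the members, as given above. The bin of Lyn (a Src-family kinase of B cell receptor signalling), chr4:3650130-3700098, went from 0.451 and 0.447 to 0.546 and 0.538 (0.27 ± 0.059, edgeR FDR = 0.000244), and that of Birc3 (an inhibitor of apoptosis), chr9:7849508-7900068, from 0.567 and 0.515 to 0.664 and 0.654 (0.29 ± 0.056, edgeR FDR = 6.13e-05). Klf6, Rps20 (a ribosomal protein), Il7 (a lymphocyte growth factor) and Tcea1 (an elongation factor) rose by 0.32, 0.28, 0.24 and 0.23. Rb1cc1, Tox, Cdk6, Insr and Upf2 rose by 0.13 to 0.20. Mcm10, a replication initiation factor, was the one that fell, from 1.02 and 1.14 to 0.926 and 0.938 (-0.22 ± 0.060, edgeR FDR = 0.00288), while Suv39h2 and Dclre1c had changes of -0.029 and 0.013 that did not pass. With TMM scaling the change of Insr turned to -0.14, and Klf6, Cdk6 and Mcm10 did not pass (edgeR FDR = 0.701, 0.416 and 0.230). Of the list, Il7, Birc3 and Tcea1 were higher at pre-S than at 10 h, Lyn, Tox and Rps20 higher at imminent division than at pre-S, and Suv39h2 higher at 10 h than at 3 h (0.21, edgeR FDR = 0.0499, past 5% in 3 of 12 settings).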

How the data were processed

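The authors aligned in situ Hi-C reads to mm10 with diffHic, removed duplicates, dangling ends and overly long fragments, and deposited, for each library, raw counts of read pairs per pair of 50 kb bins, without balancing. Bins were rebuilt from the MboI fragments of GRCm38, since the matrices name no coordinates, and all 53357 matched. Autosomal bins with over 10% undetermined sequence, or with interchromosomal coverage, pooled over the 8 libraries, over 4 times or under 1/4 of the median, were left out, so a kept bin can lie outside these limits in a single library. The member bins and gene lists were chosen with earlier results of these data known.

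Summed contacts over expectation were compared over 4 groups by an exact permutation test (two-sided, 2520 assignments, smallest p 0.00952) with Benjamini-Hochberg adjustment over 9 measures, and class against class by sign flips. Counts of windows and bins with a mean of at least 5 entered edgeR 4.0.16 (quasi-likelihood, robust, trended dispersion, one-way layout over 8 libraries, log expected counts as offset) in R 4.3.3, with FDR over each whole table. DESeq2 1.42.0, TMM factors without coverage, no count filter, all bins, a replicate block and leaving out each library were the 13 alternatives for each count of calls (12 for a single bin or pair, where keeping all bins changes the table). Sums used Python 3.11.15, NumPy 2.4.6, pandas 2.3.3 and SciPy 1.17.1. On simulated counts with 200 features changed 1.5-fold, edgeR recovered 89.5% of interchromosomal window pairs and 100% of cis window pairs. It recovered 14.5% of bins in contact with proximal windows and 100% of bins in cis. Of its calls there, 7.73%, 6.54%, 9.38% and 6.98% were false in the same order, each above the FDR of 5%. Recovery at smaller folds was not tested.

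Picked for naming were, for each contrast, the 2 member bins with the smallest FDR in each direction among those past 5%, the 3 member window pairs with the smallest p in each direction, and the bins of 14 listed genes. Not all of them are described. Among those left out are the cis pairs of both contrasts with pre-S and the cis bins of imminent division against pre-S. With 2 libraries per group, p-values measure the spread between these libraries only. The read pairs carry no molecular identifiers, so they need not be independent molecules. Same-numbered replicates were not taken as pairs, since correlations of their deviations ranged from -0.33 to 0.15. The study's list of excluded regions, and its naive, expanded and plasmablast libraries, were not used here.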

Additional observations from a re-analysis of the deposited data

How the results depend on the processing

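Of 146 alternative runs of the 9 measures over the groups, 131 kept the direction of the imminent division minus 10 h difference and the side of the threshold, while 84 of 85 runs of the 5 class comparisons kept the sign of the excess and its side of the threshold, and 315 of 416 runs of the 32 counts of called members (4 contrasts, both directions) stayed within 1.5 times the count given. With total coverage in the expectation, the log2 differences became -0.022 for proximal with proximal windows, -0.082 for proximal with rDNA-bearing proximal windows and -0.059 for the excess over the rDNA-bearing ends, all reversed, and -0.098 for proximal with telomere-proximal windows, no longer past the threshold. With end pairs left out of the coverage, proximal with interior contact changed sign to 0.0018. With 2.5 Mb windows the cis class of 20 to 50 Mb (0.013) no longer passed. Leaving out 1 library moved proximal with telomere-proximal contact between -0.045 and -0.023, and in 2 of these 8 runs it was no longer past the threshold. The cause of these changes was not tested. 2 alternatives, the last 5 Mb as the telomeric class and leaving out chromosome 14, were chosen after seeing the data and changed no call of these measures and class comparisons, but the change of the proximal lead over the telomeric ends passed only with the last full windows.

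With the replicate block, permuting only within replicate numbers, the smallest p was 0.0417, and 8 of 9 measures no longer passed after adjustment (adjusted p 0.0625 to 0.0938), with differences as before: 0.15, 0.045, -0.034, -0.0047, 0.039, 0.026, -0.054 and -0.11. In edgeR the block gave 1 interchromosomal pair higher at pre-S than at 10 h, 2 and 6 cis pairs higher and lower at 10 h than at 3 h, and 3 bins higher in cis at 10 h than at 3 h, and moved no other count by over 1.5 times.

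With TMM factors, in the order higher and lower, interchromosomal pairs numbered 5 and 4 (imminent division against 10 h), 1 and 12 (pre-S against 10 h) and 16 and 4 (imminent division against pre-S). Cis pairs numbered 0 and 0 for 10 h against 3 h, and 157 rose at pre-S against 10 h. Bins in contact with proximal windows numbered 1 higher at 10 h, 6 lower at imminent division, 4 and 3 at pre-S against 10 h, and 45 and 3 at imminent division against pre-S (7 higher with all bins kept). Bins in cis numbered 0 and 0, 118 and 228, 401 and 235, and 103 and 408 over the 4 contrasts.

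With DESeq2 interchromosomal pairs numbered 9 higher at imminent division against 10 h, 1 and 0 at pre-S against 10 h and 8 higher at imminent division against pre-S. Cis pairs numbered 2 and 4 at 10 h against 3 h and 37 higher at pre-S against 10 h. Bins in contact with proximal windows numbered 0 higher in both imminent division contrasts, and bins in cis 3 and 5 at 10 h against 3 h.

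Leaving out 1 library gave these ranges. Interchromosomal pairs: 16 to 33 higher and 0 to 1 lower (imminent division against 10 h), 0 to 2 and 0 to 2 (pre-S against 10 h), 17 to 36 higher (imminent division against pre-S). Cis pairs: 0 to 7 and 0 to 18 (10 h against 3 h), 31 to 65 and 51 to 85 (pre-S against 10 h). Bins in contact with proximal windows: 2 to 34 higher (imminent division against 10 h) and 0 to 2 higher (against pre-S). Bins in cis: 0 to 10 and 1 to 14 (10 h against 3 h), 45 to 90 lower (imminent division against 10 h), 67 to 175 and 41 to 74 (pre-S against 10 h), 180 to 352 and 23 to 57 (imminent division against pre-S). Each listed gene's contact with proximal windows rested on 36 to 404 read pairs per library.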

Other observations

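The X chromosome, which is also telocentric, met the 14 autosomal proximal windows more at its own proximal window than elsewhere. The value over expectation was 1.13 ± 0.0097 (3 h), 1.18 ± 0.031 (10 h), 1.19 ± 0.039 (imminent division) and 1.09 ± 0.013 (pre-S; SD, n = 2), against 0.926, 0.925, 1.02 and 0.946 for the rest of X. Imminent division replicate 2, the library with the uneven sex chromosome shares, enters these values. Replicate 1 alone stood at 1.22 for the proximal window and 1.02 for the rest of X.

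Interchromosomal coverage of single member bins was stable between groups with few exceptions, chosen here after their values were seen. The median log2 range of the 4 group means was 0.20 in member bins and 0.21 over all kept autosomal bins, and 1 of 1294 members, against 29 of 47332, had group means over 2-fold apart. That one was chr1:3000191-3049670, described above, whose cis coverage was 0.582 to 0.698 times the median at 3 h, 10 h and imminent division and 0.895 and 0.957 at pre-S. On chromosome 17, 3 neighbouring bins from 6400005 to 6549827 were low in pre-S replicate 2 alone: the bin where Dynlt1b (a dynein light chain gene) starts stood at 0.454 times the median there and at 1.30 to 1.77 in the other 7 libraries, and its cis coverage was 0.227 against 0.641 to 0.865. The bin chr17:3000418-3050005 went the other way from chr1:3000191-3049670, with interchromosomal coverage of 2.84 and 3.27 times the median at 3 h and 10 h (means) and 1.93 and 2.13 at imminent division and pre-S.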
